A study of Mus musculus with 14 samples.

Results

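The mitosis genes are 45 genes named for their part in dividing the chromosomes and the cell: *Cdk1* and its cyclins, the mitotic kinases, the chromosomal passenger complex, the spindle checkpoint, the anaphase machinery, centromere and kinetochore proteins, kinesins, spindle proteins, cytokinesis proteins, *Top2a*, *Mki67* and the transcription factor *Foxm1*. Where a gene had several probe sets, the one brightest on average (in log2 signal over the 14 arrays) stood for it. A probe set of their own was found for 44 of the 45, of 17149 genes tested, and *Ccnb1* was not analysed here. The 44 genes have 101 probe sets, 94 of which exceeded a signal of 20 on at least 1 array and were tested. All 44 genes passed this filter through adult arrays as well, the dimmest being *Cenph*, which reached 21.6 on 1 Sca-1Lo array.

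The study profiled cells of the C57BL/6 mouse prostate to ask how fetal and adult stem cells of this gland are related. The fetal cells are the epithelium of the urogenital sinus (UGE), in which fetal stem cells are enriched, taken at embryonic day 16, with 3 samples. The adult cells came from the ducts nearest the urethra of males, whose age the labels give as 6 to 8 weeks (their strain as C57BL), and were sorted by the amount of the surface protein Sca-1 into Sca-1Hi (the fraction enriched in adult stem cells, 3 samples), Sca-1Lo (the fraction enriched in transit-amplifying cells, 4 samples) and Sca-1Neg (the most differentiated cells, 4 samples). The labels name no transgene, deletion or treatment in any group. The sort used Sca-1 alone, as far as the sources used here say, so each gate can hold any cell with that level of Sca-1. The embryos' sex and the number of animals behind a sample are not given in the sources used here, and p-values therefore measure only the spread between these samples.

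Mitosis begins when the kinase Cdk1, bound to a cyclin, phosphorylates proteins that condense the chromosomes, dissolve the nuclear envelope and build the spindle. Kinetochores then attach each chromosome to spindle microtubules, and the spindle checkpoint holds back the anaphase-promoting complex until all are attached. That complex, a ubiquitin ligase, marks securin and the cyclins for destruction, after which the chromatids part and a contractile ring divides the cell. The messages of most of these proteins are made mainly from late S phase to mitosis, so in a mixed sample they are widely used to follow dividing cells. An array of a bulk sample cannot tell fewer dividing cells from less message per cell.

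Over the 14 arrays the median signal ran from 80.7 to 99.5. Epithelial markers were present in all groups, with 8 pan-epithelial genes summing to a signal of 16696 to 25595 in UGE, 11437 to 15599 in Sca-1Hi, 8750 to 15359 in Sca-1Lo and 5546 to 17721 in Sca-1Neg. Basal markers (8 genes) summed to 21609 to 27829 in UGE, 17046 to 25934 in Sca-1Hi, 8280 to 26896 in Sca-1Lo and 1125 to 7672 in Sca-1Neg. Luminal markers (8 genes) summed to 20610 to 29308 in UGE, 46647 to 65998 in Sca-1Hi, 52905 to 84014 in Sca-1Lo and 39812 to 85080 in Sca-1Neg. Of these 8, 2 were higher and 5 lower in UGE than in Sca-1Neg: the keratin *Krt8*, for example, was at 8172 to 11140 in UGE and 2239 to 7239 in Sca-1Neg, while *Pbsn*, *Spink1* and *Svs2* lay at or below 20 on every UGE array. Markers of other cells moved with the gates: 21 leukocyte genes summed to 1915 to 3008 in UGE, 1543 to 3196 in Sca-1Hi, 2920 to 11551 in Sca-1Lo and 8668 to 94681 in Sca-1Neg, and 12 endothelial genes to 369 to 1001 in UGE, 13363 to 24331 in Sca-1Hi, 7101 to 16505 in Sca-1Lo and 1770 to 6170 in Sca-1Neg. Smooth muscle and pericyte markers (10 genes, all lower in UGE than in Sca-1Neg) summed to 1844 to 5081 in UGE, 11045 to 34250.4 in Sca-1Hi, 17252 to 35199 in Sca-1Lo and 38434 to 108894 in Sca-1Neg. Fibroblast markers (10 genes) summed to 6957 to 21086 in UGE, 14008 to 59591 in Sca-1Hi, 11969 to 73104 in Sca-1Lo and 17521 to 51476 in Sca-1Neg, and erythroid markers (5 genes) to 159 to 254 in UGE, 279.6 to 478 in Sca-1Hi, 294 to 404 in Sca-1Lo and 913 to 9266 in Sca-1Neg. Of the leukocyte markers, *Ptprc*, *Cd53*, *C1qc*, *Cd3g* and *Cx3cr1* were at or below 20 on every Sca-1Hi array, and of the endothelial ones *Pecam1* and *Tie1* on every UGE array. The same held for *Cd3g* on every UGE and Sca-1Lo array, *Cx3cr1* on every Sca-1Lo array and *Pecam1* on every Sca-1Neg array. The part of these other cells in the mitosis signals was not tested.

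In UGE nearly the whole set of mitosis genes stood above all adult populations, with median differences of 3.25 to 3.59 log2 units and smaller ones for some genes. Against Sca-1Neg, 41 of the 44 genes were higher and 0 lower, where 16.3% of all genes tested were higher and 12.9% lower. A gene is called higher or lower here at a Benjamini-Hochberg adjusted p under 0.05 in limma, over all probe sets, together with a difference over 0.81 on the log2 scale, the fold minimum. The median difference in log2 signal, UGE minus Sca-1Neg, was 3.25 for the 44 genes and 0.07 for all genes, and 31 of the 44 exceeded 3. Among the 31 is *Cenph*, whose lower bound of 6.73-fold is under 8-fold, a log2 difference of 3. With the 4 genes whose Sca-1Neg level was under 20 set to their lower bound, the median was 3.22. In 42 of the 44 every UGE array lay above every Sca-1Neg array, as it did for 20.1% of all genes, and in these 42 the lowest UGE array was also above the highest of the 11 adult arrays, as it was for 14.1% of all genes. The genes not called were *Pttg1*, *Kif2c* and *Foxm1*.

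**Figure D1:**
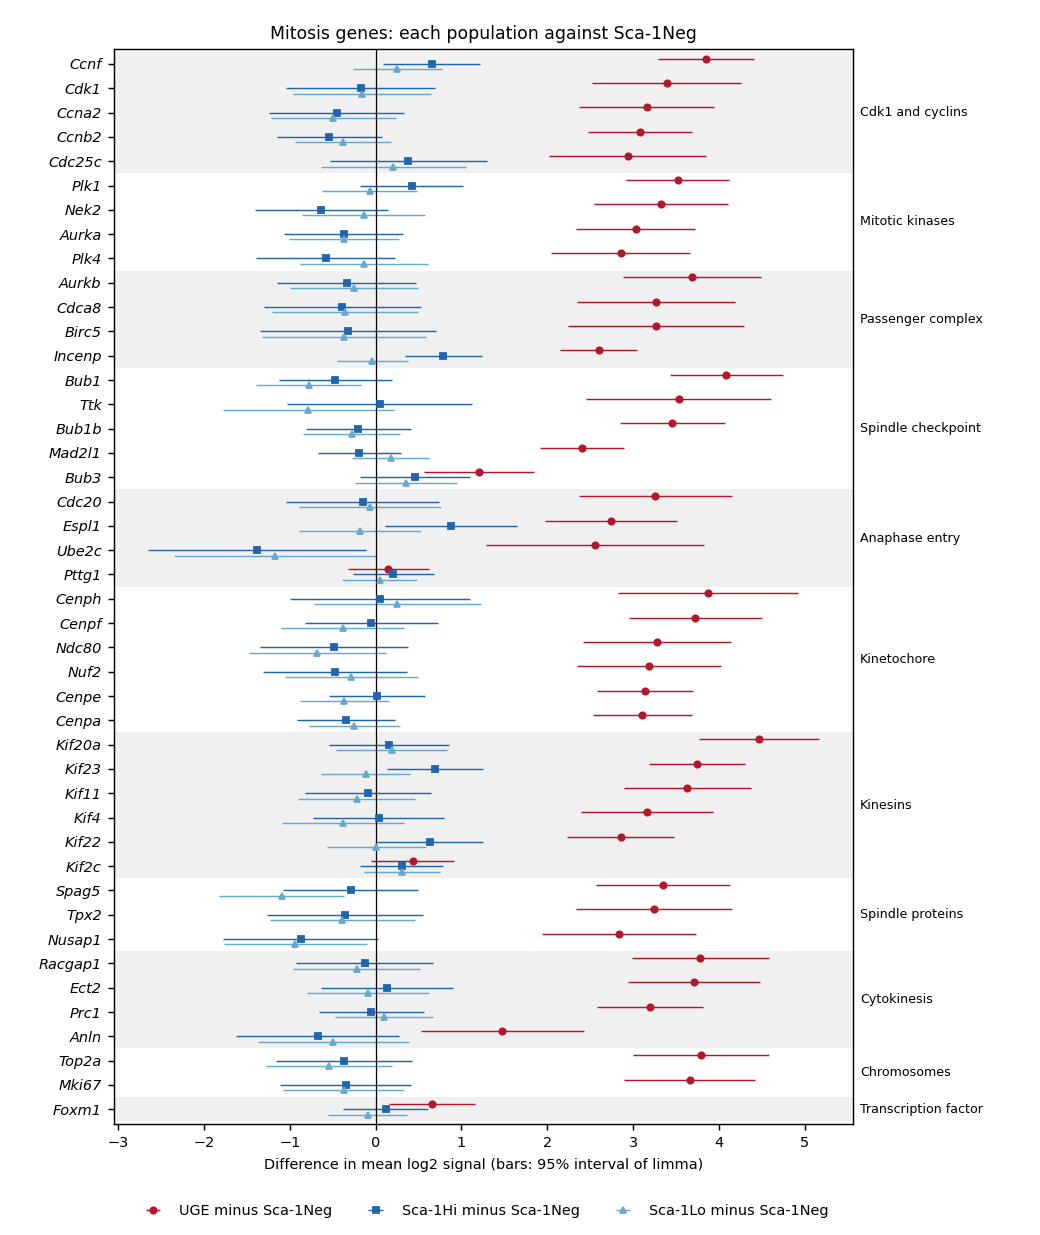
Difference in mean log2 signal from Sca-1Neg (x axis) for each of the 44 mitosis genes (rows, grouped by role) in UGE (circles), Sca-1Hi (squares) and Sca-1Lo (triangles), with limma's 95% interval as bars. The UGE differences of 41 called genes run from 1.20 (Bub3) to 4.47 (Kif20a, whose Sca-1Neg level was under 20), while the Sca-1Hi and Sca-1Lo differences lie on both sides of 0.

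*Mki67*, whose protein coats mitotic chromosomes and is the standard mark of dividing cells, had signals of 2635, 3594 and 3858 on the UGE arrays, against 233, 125 and 302 in Sca-1Hi, 242, 279, 126 and 200.3 in Sca-1Lo and 213, 233, 383 and 252 in Sca-1Neg. The 3 UGE arrays lay far above the 11 adult arrays, whose groups overlapped. Its difference between UGE and Sca-1Neg was 3.66 ± 0.35 on the log2 scale (SE, 12.6-fold, adjusted p = 8.32e-06). *Top2a*, the topoisomerase that untangles sister chromatids, had 3136, 3709.6 and 4118 on the UGE arrays, against 261, 107 and 297 in Sca-1Hi, 219.6, 267, 115 and 153 in Sca-1Lo and 218, 232, 309 and 301 in Sca-1Neg. Here too UGE stood apart, by 3.79 ± 0.37 (SE) from Sca-1Neg or 13.9-fold (adjusted p = 8.32e-06), and the lowest UGE array was 10.1 times the highest adult one.

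*Cdk1*, the kinase that starts mitosis, had signals of 1546, 2202 and 1927 on the UGE arrays, against 194, 91.9 and 221 in Sca-1Hi, 214, 251, 87.5 and 141 in Sca-1Lo and 154, 132, 277 and 179.5 in Sca-1Neg. No adult array reached the UGE range, and the UGE minus Sca-1Neg difference was 3.39 ± 0.40 (SE, 10.5-fold, adjusted p = 4.56e-05). The 5 measured genes of this group all rose in UGE. The largest difference was that of *Ccnf*, which encodes cyclin F, an F-box protein that turns over mitotic proteins: 597, 638 and 559 on the UGE arrays, against 59.04, 66.4 and 70.8 in Sca-1Hi, 63.3, 61.2, 42.5 and 36.4 in Sca-1Lo and 45.8, 55.2, 33.8 and 34.8 in Sca-1Neg. Its UGE minus Sca-1Neg difference was 3.85 ± 0.26 (SE, adjusted p = 4.91e-07). The smallest was that of *Cdc25c*, the phosphatase that activates Cdk1, which was dim in adult cells: 116, 181 and 128 on the UGE arrays, against 31.9, 12.1 and 34.4 in Sca-1Hi, 18.7, 35.9, 10.5 and 27.4 in Sca-1Lo and 16.2, 21.1, 20.2 and 15.8 in Sca-1Neg. UGE exceeded Sca-1Neg at least 6.84-fold (adjusted p = 2.36e-04), as 2 of the 4 Sca-1Neg arrays and their mean were under the signal of 20 used as a floor. The cyclins *Ccna2* and *Ccnb2*, partners of Cdk1, differed by 3.16 and 3.08.

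All 4 mitotic kinases rose, by 2.85 to 3.52 on the log2 scale against Sca-1Neg. *Plk1*, which acts on centrosomes, kinetochores and cytokinesis, had 706, 676 and 636 on the UGE arrays, against 99.04, 59.1 and 82.9 in Sca-1Hi, 55.6, 72.8, 42.8 and 56.3 in Sca-1Lo and 45.04, 66.9, 82.01 and 47.9 in Sca-1Neg. *Plk4*, the kinase that starts centriole duplication, had 809, 691 and 998 on the UGE arrays, against 104, 34.96 and 120.5 in Sca-1Hi, 91.5, 86.3, 134 and 108 in Sca-1Lo and 123, 125, 82.5 and 132 in Sca-1Neg. In both genes the UGE arrays lay above every adult array, with differences from Sca-1Neg of 3.52 ± 0.28 for *Plk1* and 2.85 ± 0.38 for *Plk4* (SE, adjusted p = 1.59e-06 and 1.04e-04). *Nek2*, a centrosome kinase, and *Aurka*, the kinase of spindle poles, differed by 3.32 and 3.03.

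The chromosomal passenger complex corrects wrong attachments at the centromere, and its 4 subunits rose in UGE. *Aurkb*, its kinase, had 355, 617 and 516 on the UGE arrays, against 25.2, 24.4 and 42.9 in Sca-1Hi, 35.5, 60.7, 22.6 and 20.7 in Sca-1Lo and 46.4, 41.1, 28.1 and 37.7 in Sca-1Neg. The UGE arrays spread from 355 to 617 and none came near the adult maximum of 60.7. Its difference from Sca-1Neg, 3.68 ± 0.37 (SE, adjusted p = 1.21e-05), was the largest of the complex. The smallest was that of *Incenp*, the scaffold that binds Aurora B: 1538, 1811 and 1872 on the UGE arrays, against 471, 513 and 502 in Sca-1Hi, 306, 233, 298 and 284 in Sca-1Lo and 238, 295, 291 and 330.3 in Sca-1Neg. On this gene's brightest probe set UGE was highest as well (2.60 ± 0.21, adjusted p = 1.68e-06), and the 3 Sca-1Hi arrays lay between UGE and the other adult arrays without overlap. *Birc5*, which encodes survivin, and *Cdca8*, which encodes borealin, differed by 3.26 and 3.27.

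The 5 spindle checkpoint genes all rose in UGE, by unequal amounts. *Bub1*, a kinase of unattached kinetochores, had 479, 619 and 668 on the UGE arrays, against 29.1, 15.8 and 33.3 in Sca-1Hi, 27.9, 19.7, 20.9 and 13.95 in Sca-1Lo and 36.7, 42.2, 28.3 and 31.9 in Sca-1Neg. Its UGE signals were 479 or more and its adult signals 42.2 or less, with a difference from Sca-1Neg of 4.08 ± 0.31 (SE, 16.97-fold, adjusted p = 1.01e-06). *Bub3*, which carries Bub1 to the kinetochore, was bright in every population: 3808, 4843 and 4148 on the UGE arrays, against 2252, 2429.7 and 2955 in Sca-1Hi, 2241, 1706, 2831 and 2841 in Sca-1Lo and 1491, 1255, 2209 and 2788 in Sca-1Neg. The UGE arrays were still above all others, but by less, with 1.20 ± 0.30 against Sca-1Neg (SE, 2.30-fold, adjusted p = 0.00874). The call was lost with the methods' t-test (adjusted p = 0.0757) and with only those adult arrays that a table of the study numbers 3 to 5 (0.77, adjusted p = 0.0582). *Ttk*, the Mps1 kinase that switches the checkpoint on, was at least 10.2-fold higher in UGE than in Sca-1Neg, where its mean was 18.1. *Bub1b* (BubR1) and *Mad2l1* (Mad2), which restrain Cdc20, differed by 3.46 and 2.40.

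Of the 4 anaphase genes, *Cdc20*, *Ube2c* and *Espl1* rose in UGE and *Pttg1* did not pass the test. *Cdc20*, the activator of the anaphase-promoting complex, had 3189.9, 3346 and 3445 on the UGE arrays, against 491, 156 and 399.9 in Sca-1Hi, 502, 441, 173 and 315 in Sca-1Lo and 267, 314, 456 and 379.9 in Sca-1Neg. The UGE arrays were within 1.08-fold of each other and 6.35 times or more the highest adult array, and the difference from Sca-1Neg was 3.26 ± 0.42 (SE, adjusted p = 7.87e-05). *Pttg1*, which encodes securin, the inhibitor of separase, had 3523, 4610.4 and 3920.2 on the UGE arrays, against 4222, 3915 and 4354 in Sca-1Hi, 4134, 2963, 4087 and 3826 in Sca-1Lo and 3365, 3263, 3379 and 4532 in Sca-1Neg. All 4 groups overlapped at a bright level, and the UGE minus Sca-1Neg difference was 0.15 ± 0.22 (SE, 95% interval half-width 0.47, adjusted p = 0.652). Its other probe sets gave -0.04 (1424105_a_at) and -0.25 (1419620_at), neither called. *Espl1*, which encodes separase itself, differed by 2.74 and *Ube2c*, the ubiquitin-conjugating enzyme of the complex, by 2.56.

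All 6 centromere and kinetochore genes rose, and all but *Cenph*, for which only a lower bound is given, rose by 3.11 or more. *Cenph*, a subunit of the constitutive centromere network, was at or below 20 on 10 of the 11 adult arrays: 134, 150.0 and 122 on the UGE arrays, against 4.96, 14.1 and 12.6 in Sca-1Hi, 21.6, 15.3, 8.90 and 4.97 in Sca-1Lo and 10.2, 12.3, 10.8 and 5.30 in Sca-1Neg. UGE exceeded Sca-1Neg at least 6.73-fold (adjusted p = 7.42e-05). *Cenpa*, the histone H3 variant that marks centromeres, had 1251, 1159.8 and 1243 on the UGE arrays, against 124, 82.8 and 133 in Sca-1Hi, 160.4, 145, 101 and 84.5 in Sca-1Lo and 123, 139, 144 and 161 in Sca-1Neg. Its UGE arrays agreed within 1.08-fold and stood 3.11 ± 0.27 above Sca-1Neg (SE, adjusted p = 2.96e-06). *Cenpf* and the kinesin *Cenpe* of the outer kinetochore differed by 3.72 and 3.14, and *Ndc80* and *Nuf2*, which together grip the microtubule, by 3.28 and 3.18.

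Of the 6 kinesins, 5 rose. *Kif20a*, a motor of the central spindle, had 342, 378 and 362 on the UGE arrays, against 21.3, 10.6 and 26.6 in Sca-1Hi, 18.6, 24.8, 13.6 and 18.9 in Sca-1Lo and 11.3, 17.7, 20.6 and 17.02 in Sca-1Neg. Adult arrays scattered about the floor, and UGE exceeded Sca-1Neg at least 17.9-fold (adjusted p = 8.34e-07). *Kif2c*, the kinesin that takes microtubules apart at centromeres, had 169, 205 and 169 on the UGE arrays, against 170.4, 139.9 and 188 in Sca-1Hi, 191, 144, 153 and 178 in Sca-1Lo and 131, 171, 116 and 123 in Sca-1Neg on its brightest probe set. The groups overlapped, with a difference of 0.43 ± 0.22 (SE, adjusted p = 0.17). *Kif11*, which pushes the spindle poles apart, *Kif23* of the central spindle, and the chromosome-bound *Kif4* and *Kif22* differed by 3.63, 3.74, 3.16 and 2.85.

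The 3 spindle proteins rose. *Spag5* (astrin), which stabilises kinetochore attachments, had 239.9, 366 and 299 on the UGE arrays, against 20.97, 17.01 and 38.2 in Sca-1Hi, 12.5, 19.9, 14.96 and 9.39 in Sca-1Lo and 28.8, 17.7, 33.6 and 42.3 in Sca-1Neg. *Nusap1*, which bundles microtubules around chromosomes, had 987, 1096 and 1203 on the UGE arrays, against 104, 48.8 and 113 in Sca-1Hi, 113, 112, 44.02 and 72.9 in Sca-1Lo and 149, 284, 113 and 113 in Sca-1Neg. Both were higher on each UGE array than on any adult array, by 3.35 ± 0.37 and 2.84 ± 0.42 against Sca-1Neg (SE, adjusted p = 2.23e-05 and 2.62e-04), and *Nusap1* reached 284 on Sca-1Neg replicate 2, the highest of the adult arrays. *Tpx2*, which activates Aurora A on the spindle, differed by 3.24.

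The 4 cytokinesis genes rose too. *Racgap1*, a subunit of centralspindlin, had 412, 474 and 553 on the UGE arrays, against 30.9, 19.3 and 53.4 in Sca-1Hi, 30.2, 39.99, 18.8 and 34.5 in Sca-1Lo and 46.5, 40.998, 22.1 and 34.3 in Sca-1Neg. It differed from Sca-1Neg by 3.78 ± 0.37 (SE, adjusted p = 9.24e-06). *Anln*, which encodes anillin, the scaffold of the contractile ring, had 1054, 1139 and 1304 on the UGE arrays, against 209, 211 and 408 in Sca-1Hi, 416, 462, 179 and 224 in Sca-1Lo and 277, 265, 841 and 493 in Sca-1Neg. Sca-1Neg replicate 3 came close to the UGE arrays, and the difference of 1.47 ± 0.44 (SE, 2.78-fold, adjusted p = 0.0244) was the least certain of the 41. It lost its call without UGE replicate 2 or 3, or without Sca-1Neg replicate 1 or 2. *Ect2*, which activates RhoA at the division plane, and *Prc1*, the microtubule bundler of the midzone, differed by 3.71 and 3.20.

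*Foxm1*, the transcription factor that activates many genes of mitosis, had 124, 107 and 110.5 on the UGE arrays, against 85.7, 71.3 and 78.5 in Sca-1Hi, 74.01, 85.2, 50.6 and 65.4 in Sca-1Lo and 84.4, 80.6, 63.99 and 62.3 in Sca-1Neg. Every UGE array was above every adult array, but the difference from Sca-1Neg, 0.66 ± 0.23 (SE, 1.57-fold), reached an adjusted p of 0.0503 and stayed under the fold minimum.

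**Figure D2:**
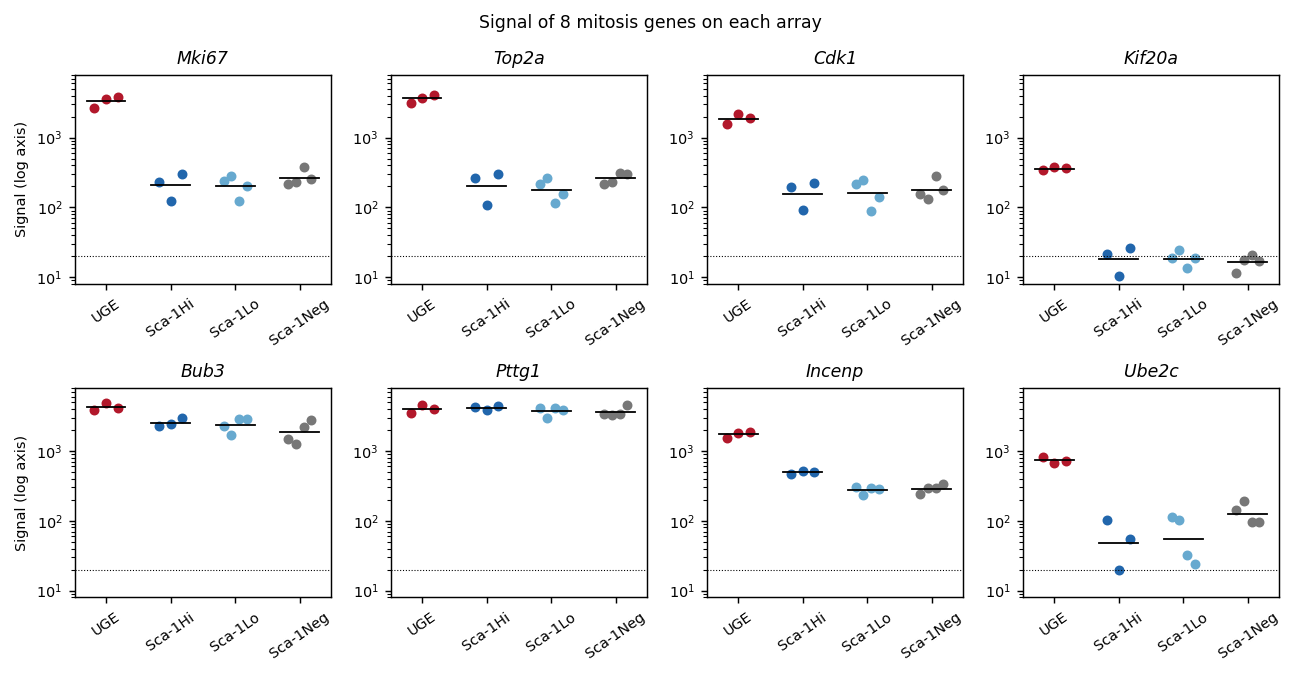
Signal (y axis, log scale) on each array for 8 mitosis genes in UGE, Sca-1Hi, Sca-1Lo and Sca-1Neg, with a bar at the mean of log2 signals and a dotted line at a signal of 20. Mki67, Top2a, Cdk1, Kif20a and Ube2c show UGE apart from all adult arrays, Bub3 a small gap, Pttg1 overlapping groups, and Incenp a Sca-1Hi level between UGE and the rest.

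Several of these calls depend on the probe set read. Of the 44 representative probe sets, 6 carry the suffix _x_at and 6 _s_at, which mark probes that can also match other transcripts. Of the 94 probe sets tested, 75 were higher in UGE than in Sca-1Neg, 18 were not called and 1 was lower. Among 28 genes with several tested probe sets, 11 had probe sets with different calls, and 43 of the 44 genes had at least 1 probe set called higher. *Anln*, *Bub3*, *Cenpf*, *Kif23*, *Nek2*, *Spag5*, *Top2a* and *Tpx2* were called on their representative probe set but not on every other. For *Anln* its only other probe set, 1439648_at, gave 0.28 (adjusted p = 0.658). *Kif2c* was called higher on 1437611_x_at (3.87, adjusted p = 1.70e-06) and 1449060_at (at least 3.58-fold, adjusted p = 0.000186, its Sca-1Neg mean of 16.4 being under 20), though not on its brightest. *Foxm1* was called higher on 1448834_at (at least 4.38-fold, adjusted p = 5.65e-05, with a Sca-1Neg mean of 19.4). The lower one was an *Incenp* probe set, 1423093_at (adjusted p = 0.0445), with mean signals of 9.62 in UGE and 17.9 in Sca-1Neg, both under 20. *Pttg1* was the only gene with no probe set called.

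The 2 other adult populations gave nearly the same picture, in comparisons that share the UGE arrays. Against Sca-1Hi, 40 genes were higher in UGE and 0 lower (all genes, 15.8% and 12%), with a median difference of 3.57, and in 42 the groups did not overlap (28.7% of all genes). Against Sca-1Lo, 40 were higher and 0 lower (all genes, 13.4% and 12.2%), with a median of 3.59, and in 42 the groups did not overlap (22.2% of all genes). *Bub1* showed the largest difference in both, 4.55 ± 0.33 from Sca-1Hi and 4.86 ± 0.31 from Sca-1Lo (SE, adjusted p = 9.11e-07 and 2.41e-07). Its means in these adult groups lay near the floor of 20, at 26.1 in Sca-1Hi and 20.6 in Sca-1Lo. On representative probe sets the genes without a call were *Pttg1* (-0.06 and 0.10), *Kif2c* (0.13 and 0.12), *Foxm1* (0.54 and 0.75) and *Bub3* (0.75 and 0.85, adjusted p = 0.0997 and 0.0543). Other probe sets were called higher in both comparisons for *Kif2c* (1437611_x_at, 3.89 and 3.84, and 1449060_at) and *Bub3* (1448473_at, 1.33 and 0.88). So was *Foxm1* on 1448834_at (1.79 and 2.20), with means of 26.9 in Sca-1Hi and 20.7 in Sca-1Lo. The remaining probe sets of these genes, with all those of *Pttg1*, were not called. *Incenp* and *Espl1* had the smallest called differences from Sca-1Hi, 1.81 ± 0.22 and 1.86 ± 0.38 (SE, adjusted p = 6.15e-05 and 0.00294). *Kif20a*, *Ttk* and *Cenph* had means under 20 in Sca-1Hi and in Sca-1Lo. They were higher in UGE by at least 16.05, 9.77 and 6.73-fold against Sca-1Hi, and by at least 17.1, 9.70 and 6.61-fold against Sca-1Lo.

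**Figure D3:**
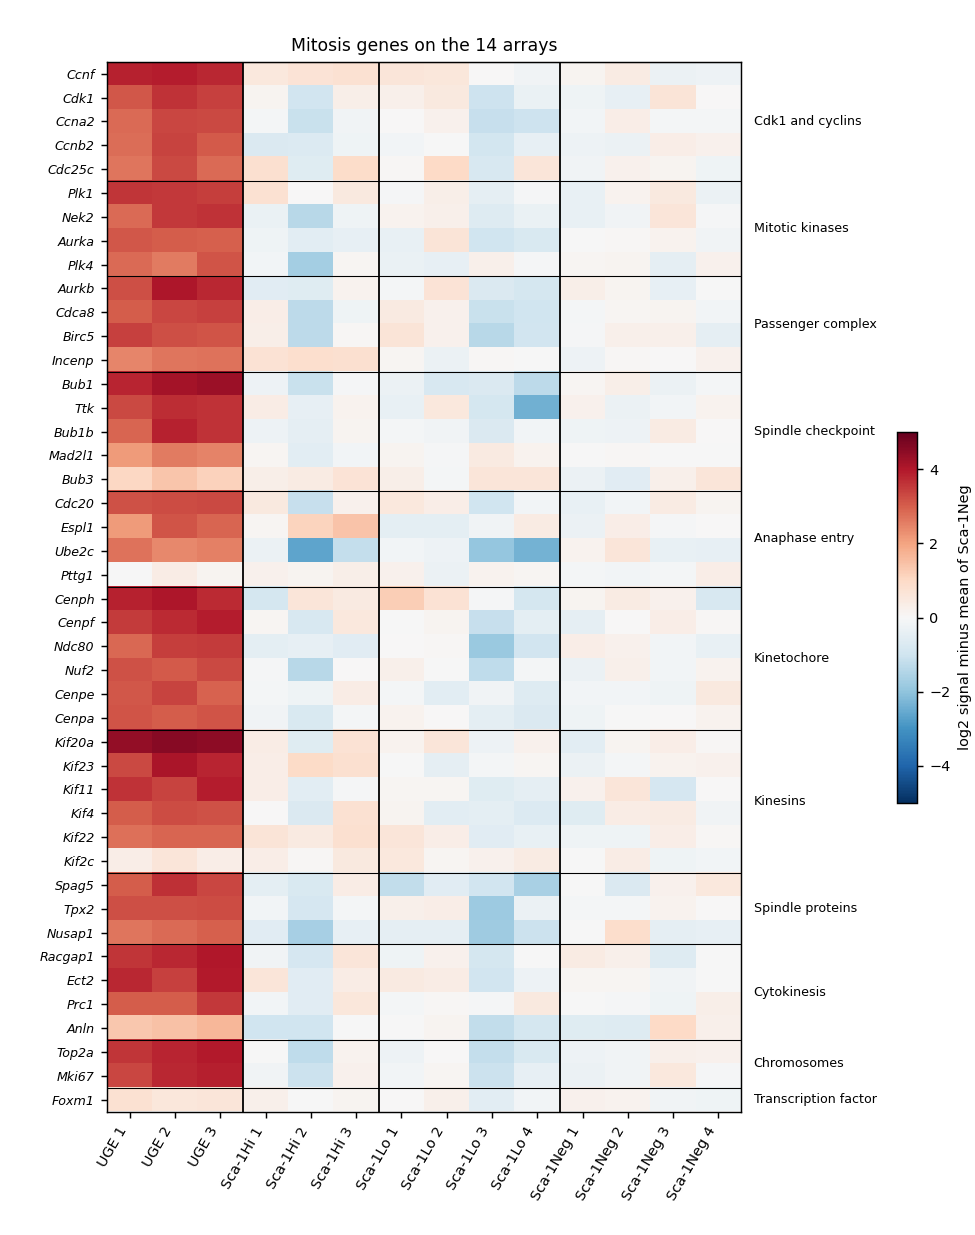
Log2 signal minus the mean of Sca-1Neg (colour, red higher, blue lower) for the 44 mitosis genes (rows, grouped by role) on each of the 14 arrays (columns, UGE to Sca-1Neg). The 3 UGE columns are red in 41 rows (palest in Bub3 and Anln), Pttg1, Kif2c and Foxm1 are pale throughout, and Sca-1Hi 2, Sca-1Lo 3 and Sca-1Lo 4 are the bluest columns.

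The mitosis genes also share letters in their promoters. Many genes of this phase are known to carry CCAAT boxes, bound by NF-Y, and a cell cycle homology region (CHR), bound by the DREAM and MuvB complexes, close to their start sites. RefSeq windows from 250 bases before to 50 after the start site (GRCm38.p6) were matched by symbol for 38 of the 45 genes. A CCAAT box (CCAAT, or ATTGG on the other strand) was present in 29 of the 38 (76.3%), against 41.1% of 27025 genes with such a window and 41.9% of the 13645 genes that were also tested. More than 1 was present in 20 (52.6%, against 13.3% of all genes). A CHR (TTTGAA, its other strand TTCAAA, or TTCGAA, which reads the same on both) was present in 28 (73.7%, against 21.7%), and both kinds in 25 (65.8%, against 8.61%). Of 35 matched genes called higher in UGE, 25 (71.4%) held both. A match is a run of letters and was not tested for binding.

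The windows of 6 genes show the range, each as the 200 bases before the start site with CCAAT and CHR letters in capitals. *Top2a*, *Cdk1*, *Cdc20* and *Ube2c* rose in UGE and carry both kinds, *Bub3* carries both and rose least of the called genes, and *Pttg1*, which did not pass the test, carries neither. They lie at chr11:99024190-99024389 on the minus strand (*Top2a*), chr10:69352913-69353112 on the minus strand (*Cdk1*), chr4:118437344-118437543 on the minus strand (*Cdc20*), chr2:164769729-164769928 on the plus strand (*Ube2c*), chr7:131560170-131560369 on the plus strand (*Bub3*) and chr11:43425982-43426181 on the minus strand (*Pttg1*).
Top2a: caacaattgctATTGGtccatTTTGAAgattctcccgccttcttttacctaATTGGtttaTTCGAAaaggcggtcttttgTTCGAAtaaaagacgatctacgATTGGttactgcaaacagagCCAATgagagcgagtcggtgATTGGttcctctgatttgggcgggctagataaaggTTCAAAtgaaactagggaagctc
Cdk1: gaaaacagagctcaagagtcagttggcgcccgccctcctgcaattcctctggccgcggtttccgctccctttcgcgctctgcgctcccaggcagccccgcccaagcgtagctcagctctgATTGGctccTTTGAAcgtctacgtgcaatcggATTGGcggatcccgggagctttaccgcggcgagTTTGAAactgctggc
Cdc20: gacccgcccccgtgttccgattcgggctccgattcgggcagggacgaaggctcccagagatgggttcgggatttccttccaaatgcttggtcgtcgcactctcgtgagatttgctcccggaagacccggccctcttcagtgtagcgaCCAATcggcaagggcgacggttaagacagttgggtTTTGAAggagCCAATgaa
Ube2c: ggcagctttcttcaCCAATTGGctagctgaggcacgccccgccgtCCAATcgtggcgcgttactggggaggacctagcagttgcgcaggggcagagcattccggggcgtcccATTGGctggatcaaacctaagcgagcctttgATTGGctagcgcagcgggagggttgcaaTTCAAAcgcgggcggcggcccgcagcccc
Bub3: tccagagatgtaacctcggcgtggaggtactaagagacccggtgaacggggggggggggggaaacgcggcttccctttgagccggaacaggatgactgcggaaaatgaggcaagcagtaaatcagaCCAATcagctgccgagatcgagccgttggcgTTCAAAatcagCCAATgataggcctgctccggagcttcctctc
Pttg1: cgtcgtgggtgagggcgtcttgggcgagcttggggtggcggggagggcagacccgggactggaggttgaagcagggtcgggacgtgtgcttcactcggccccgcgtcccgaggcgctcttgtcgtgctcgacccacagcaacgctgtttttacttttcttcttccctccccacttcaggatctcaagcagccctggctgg
*Top2a* holds 5 CCAAT boxes and 4 CHR matches in this stretch, the last CHR starting 23 bases before the start site. In *Cdk1* the CHR nearest the start lies 15 bases before it, and in *Cdc20* 18. *Ube2c* has 5 CCAAT matches, 2 of which overlap on opposite strands, and 1 CHR. *Bub3*, shown for the first of its 2 RefSeq starts, has 2 and 1. Not every gene that rose holds such letters: *Birc5*, *Nuf2*, *Plk4*, *Nusap1* and *Mad2l1* were called higher in UGE and held neither kind in their windows.

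**Figure D4:**
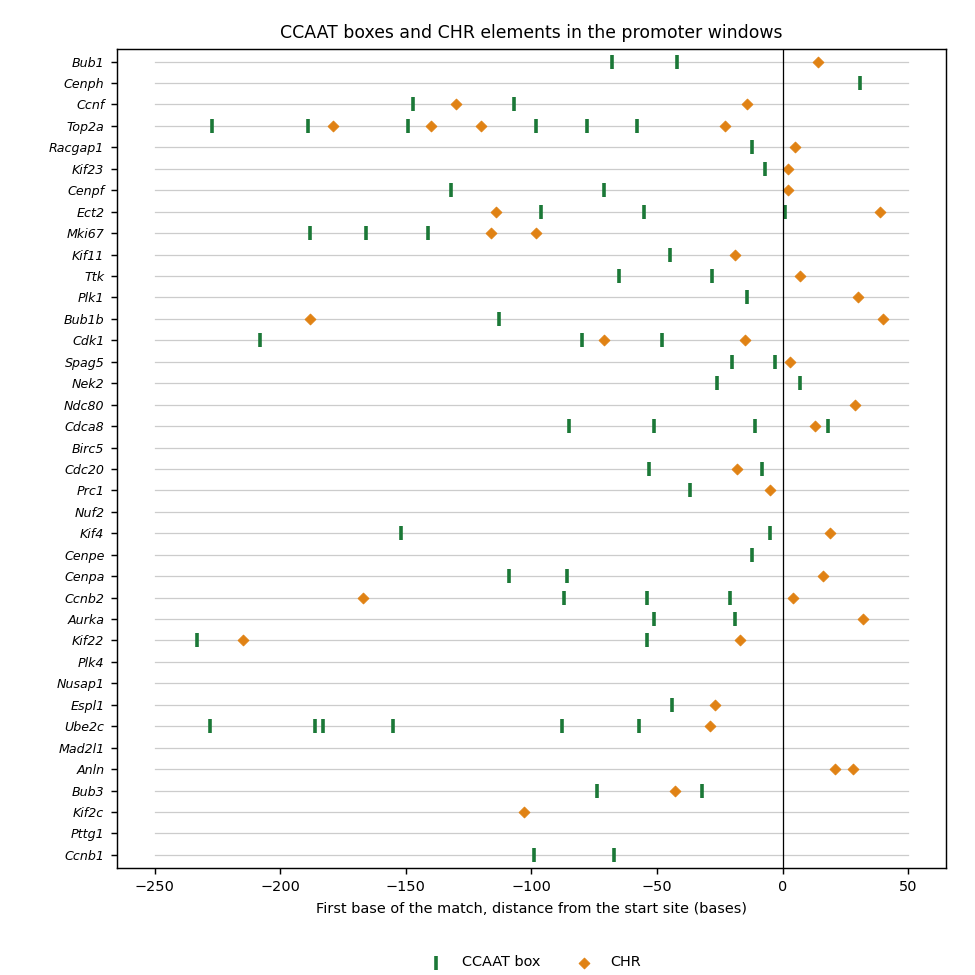
First base of each CCAAT box (bars) and CHR (diamonds) relative to the start site (x axis, bases) in the promoter windows of 38 mitosis genes, ordered from the largest UGE minus Sca-1Neg difference at the top, with Ccnb1, which has no difference here, last. The 63 CCAAT boxes have a median position of -65 and the 39 CHR matches one of -15.

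Among the 3 adult populations none of the mitosis genes passed the pairwise tests. Between Sca-1Hi and Sca-1Neg 0 of the 44 were called in either direction (all genes, 6.11% higher and 5.21% lower). Between Sca-1Lo and Sca-1Neg the count was 0 (1.68% and 0.828%), and between Sca-1Hi and Sca-1Lo it was 0 (0.0816% and 0.0175%). At an unadjusted p under 0.05 in limma, 6, 3 and 5 of the 44 passed in these comparisons, where 26%, 14.6% and 8.01% of all genes did. The median differences were -0.16 for Sca-1Hi minus Sca-1Neg, -0.23 for Sca-1Lo minus Sca-1Neg and 0.07 for Sca-1Hi minus Sca-1Lo. A missing call does not show equal levels. The 95% interval lay within 2-fold in both directions for 14, 25 and 26 of the 44 genes.

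*Incenp* was the only gene called by limma's F test over the 3 adult populations (adjusted p = 0.0406), which called 7.15% of all genes. At an unadjusted p under 0.05 the F test gave 5 of the 44 and 20.6% of all genes. On its representative probe set all 3 Sca-1Hi arrays, at 471, 513 and 502, were above the 4 Sca-1Lo arrays (306, 233, 298 and 284) and the 4 Sca-1Neg arrays (238, 295, 291 and 330.3). The Sca-1Hi minus Sca-1Neg difference was 0.79 ± 0.21 (SE, adjusted p = 0.0258), a 1.73-fold change that stays under the fold minimum. It passed the minimum without Sca-1Neg replicate 4 (0.86, adjusted p = 0.0289). From Sca-1Lo it was 0.83 ± 0.21 (adjusted p = 0.26). Another probe set, 1439252_at, was called higher in Sca-1Hi than in Sca-1Neg (1.54), while 1423092_at differed by 0.38. The means of 1439252_at were 77.5 in Sca-1Hi, 25.5 in Sca-1Neg and 62.9 in UGE, so UGE was not the highest on it. The F call was lost without any 1 of 9 adult arrays, namely all but Sca-1Neg replicates 3 and 4, and without UGE replicate 2 or 3. On the Sca-1Hi arrays the log2 ratio of the 3′ to the 5′ *Gapdh* control probe set, a measure of RNA integrity and labelling, was 3.07 to 3.48, against 1.98 to 3.22 in Sca-1Lo and 1.66 to 2.75 in Sca-1Neg. For *Actb* the same ratio overlapped more, at 1.59 to 2.77 in Sca-1Hi, 1.72 to 2.27 in Sca-1Lo and 1.17 to 2.11 in Sca-1Neg. On the UGE arrays the ratios were 1.83 to 2.38 for *Gapdh*, below every Sca-1Hi array, and 1.54 to 2.09 for *Actb*. The part of either ratio in the *Incenp* difference, or in the differences of UGE from adult populations, was not tested.

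Other genes leaned the same way without a call. *Kif23* had 136, 207 and 190.0 in Sca-1Hi, against 107, 79.3, 101 and 115 in Sca-1Lo and 88.9, 99.9, 121 and 126 in Sca-1Neg. No Sca-1Hi array overlapped the other adult arrays (0.70 ± 0.26 from Sca-1Neg, SE, adjusted p = 0.0956). *Espl1* had 79.7, 159.7 and 199 in Sca-1Hi, against 52.4, 53.5, 65.9 and 100.1 in Sca-1Lo and 60.4, 93.6, 71.95 and 75.2 in Sca-1Neg. Its Sca-1Hi replicate 1 lay within the range of the others, and without that array the gene was called (1.26, adjusted p = 0.0426). With all arrays the difference from Sca-1Neg was 0.87 ± 0.36 (SE, adjusted p = 0.126). *Ccnf* and *Kif22* were also above all Sca-1Neg arrays in Sca-1Hi, making 4 of the 44 with *Incenp* and *Kif23*, as were 12.3% of all genes. Of these, *Ccnf*, *Kif22* and *Incenp* were read on _x_at probe sets. Other probe sets, none called, differed by 0.43 for *Ccnf* (1422513_at) and by 0.26 and -0.10 for *Kif22* (1451128_s_at and 1423813_at). The other probe sets of *Kif23* had means under 20 in Sca-1Hi and Sca-1Neg. *Incenp* and *Kif23* were also above all Sca-1Lo arrays (2 of 44, and 4.9% of all genes). *Aurka* and *Ndc80* were below all Sca-1Neg arrays, as were 8.79% of all genes. Also in the other direction *Ube2c* had 103, 19.8 and 53.97 in Sca-1Hi and 113, 104, 32.5 and 24.3 in Sca-1Lo, against 141, 189, 96.4 and 94.5 in Sca-1Neg. It was highest on Sca-1Neg replicates 1 and 2, the arrays with the most leukocyte marker signal (59866 and 94681). These arrays also had the most erythroid (4734 and 9266) and the least basal marker signal (1690 and 1125), and the part of such cells was not tested. *Ube2c* differed by -1.38 ± 0.59 between Sca-1Hi and Sca-1Neg (SE, adjusted p = 0.142). *Nusap1* reached 149 and 284 on the same Sca-1Neg arrays, against at most 113 in Sca-1Lo, and *Bub1* and *Nusap1* were lower on every Sca-1Lo array than on any Sca-1Neg array (2 of 44, and 2.5% of all genes). *Nek2* on 1443999_at and *Bub3* on 1448058_s_at, dim probe sets that do not stand for their genes, were called higher in Sca-1Hi than in Sca-1Neg.

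Ranked by mean log2 signal with no test, Sca-1Hi was the highest adult population for 14 of the 44 genes, Sca-1Lo for 5 and Sca-1Neg for 25. Over all genes the shares were 37.4% for Sca-1Hi, 28.2% for Sca-1Lo and 34.4% for Sca-1Neg. Sca-1Hi was the lowest for 14, Sca-1Lo for 22 and Sca-1Neg for 8, where all genes gave 40% for Sca-1Hi, 15.5% for Sca-1Lo and 44.5% for Sca-1Neg. The genes move together on each array, so the 44 ranks are not separate pieces of evidence. Low signals gathered on some arrays: Sca-1Hi replicate 2 was the lowest of its group for 35 genes and Sca-1Lo replicate 3 for 25. No Sca-1Neg array was the lowest of its group for more than 16. Averaged over the 44 genes, log2 signals were 6.64, 6.05 and 6.85 in Sca-1Hi, 6.68, 6.70, 5.93 and 6.17 in Sca-1Lo, and 6.51, 6.67, 6.68 and 6.62 in Sca-1Neg. The Sca-1Neg arrays were close to each other, within 0.17 units, while Sca-1Hi spread over 0.81 and Sca-1Lo over 0.77.

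The adult ranks turned with the set of arrays. A table of the study numbers its adult samples 1 to 5, and the meaning of these numbers is not stated in the sources used here. They could be assigned to arrays by value. The table's values match log2 of the deposited signal plus 16, minus the Sca-1Neg mean (largest mismatch 1.20e-05 over all arrays, UGE included). On the arrays numbered 1 and 2, Sca-1Hi and Sca-1Lo were each the highest population for 18 genes and Sca-1Neg for 8, and the median Sca-1Lo minus Sca-1Neg difference was 0.12. On those numbered 3 to 5, Sca-1Lo was the lowest for 34 genes, Sca-1Neg was the highest for 27, and the median was -0.68. For Sca-1Hi minus Sca-1Neg the medians were 0.06 on numbers 1 and 2 and -0.27 on numbers 3 to 5, and for Sca-1Hi minus Sca-1Lo they were 0.01 (22 genes higher, 22 lower in mean) and 0.41 (37 higher, 7 lower). Numbers 1 and 2 hold only 1 Sca-1Hi array. For UGE minus Sca-1Neg they were 3.28 and 3.15. Leukocyte marker sums moved with the same sets, at 11551 and 7486 on the Sca-1Lo arrays numbered 1 and 2 and 2920 and 2961 on those numbered 3 to 5. On the Sca-1Neg arrays they were 59866 and 94681 for numbers 1 and 2, and 8668 and 20773 for numbers 3 to 5. Other sums on the Sca-1Lo arrays moved with these sets too. From numbers 1 and 2 to numbers 3 to 5, basal sums went from 14127 and 8280 to 26896 and 25733.5. Endothelial sums went from 7101 and 7403 to 14010 and 16504.5, and fibroblast sums from 22122 and 11969 to 57600 and 73103.5. Luminal sums fell from 84014 and 70922 to 54846 and 52905. Smooth muscle, erythroid and pan-epithelial sums overlapped between the sets. The part of these markers in the ranks was not tested.

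**Figure D5:**
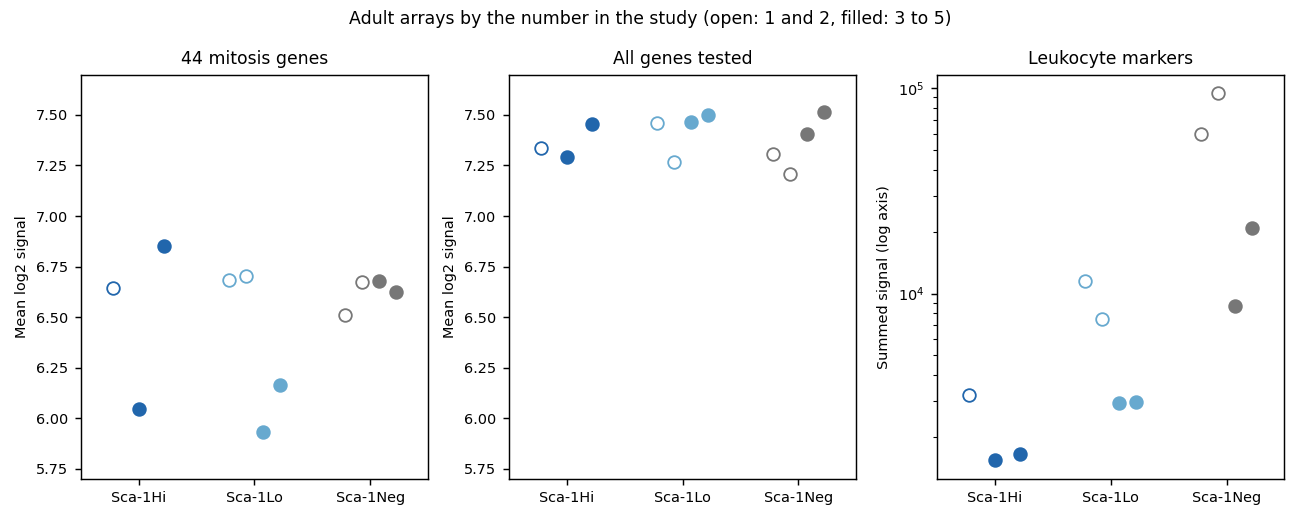
Mean log2 signal of the 44 mitosis genes (left) and of all genes tested (middle), and summed signal of 21 leukocyte markers (right, log axis), on each adult array of Sca-1Hi, Sca-1Lo and Sca-1Neg, open for study numbers 1 and 2 and filled for 3 to 5. The mitosis genes are lowest on Sca-1Hi replicate 2 (6.05) and on Sca-1Lo replicates 3 and 4 (5.93 and 6.17), where the mean of all genes was 7.29 (Sca-1Hi replicate 2), 7.47 (Sca-1Lo replicate 3) and 7.501 (Sca-1Lo replicate 4), in an adult range of 7.21 to 7.51.

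The wider machinery of mitosis moved in the same direction in UGE. Of 134 measured genes of 7 further lists, 80 were higher in UGE than in Sca-1Neg and 2 lower (16.3% and 12.9% of all genes), with a median difference of 1.26. Condensin and cohesin genes gave 12 higher of 20, led by *Sgo2a* (3.80), which protects centromeric cohesion, *Cdca5* (3.79), which encodes sororin, and the condensin subunit *Ncapg* (3.56). Other kinetochore genes gave 24 higher of 30, among them *Cenpk* (3.21), *Ska3* (at least 5.28-fold) and *Cenpi* (at least 6.53-fold), and 1 lower, the Mis12 complex subunit *Nsl1* (-1.16, adjusted p = 0.0299). Other spindle genes gave 17 of 25, led by *Aspm* (3.77) of the spindle poles, *Dlgap5* (3.19) and *Depdc1a* (at least 9.54-fold).

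The citron kinase *Cit*, which works in the last step of cytokinesis, had the largest difference among the 44 genes and these lists: 3409, 6739.8 and 7193 on the UGE arrays, against 165, 224 and 235 in Sca-1Hi, 163, 165, 229 and 207 in Sca-1Lo and 130.3, 202, 141 and 115 in Sca-1Neg. UGE was 5.26 ± 0.30 above Sca-1Neg (SE, 38.2-fold, adjusted p = 1.01e-07), with no overlap with any adult array. The list of other cytokinesis genes gave 4 higher of 11, with *Shcbp1* (4.21) and the abscission protein *Cep55* (3.13) next. Subunits and regulators of the anaphase-promoting complex gave 6 higher of 15, the inhibitor *Fbxo5* (2.78), the chain-extending enzyme *Ube2s* (1.33) and the subunit *Cdc27* (1.15) among them. Other entry kinases and phosphatases gave 11 higher of 20, led by *Melk* (3.65), *Cdc14b* (2.99) and the Cdk1-binding *Cks2* (2.64), and 1 lower, the polo-like kinase *Plk3* (-1.42, adjusted p = 0.00982). Of 13 regulators of mitotic genes 6 were higher, with the MuvB subunit *Lin9* (1.70), the kinase inhibitor *Cdkn1a* (1.34, p21) and the pocket protein *Rbl1* (1.26, p107) in front. Between adult populations the same 134 genes gave 5 higher and 1 lower in Sca-1Hi than in Sca-1Neg, where 6.11% of all genes were higher and 5.21% lower. They gave 0 for Sca-1Lo against Sca-1Neg and for Sca-1Hi against Sca-1Lo in limma, where 7 and 12 had an unadjusted p under 0.05 (all genes, 14.6% and 8.01%). The 6 called, named after their values were seen, were *Cenpt* (1.55), *Ska1*, *Pkmyt1* (1.03), *Plk2* (1.58) and *Cdc14a* (1.84), which were higher, and *Mis12* (-1.07), which was lower.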

How the data were processed

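RNA of 14 samples was labelled by the authors with a 2-cycle kit and hybridized to Affymetrix mouse MOE430 2.0 arrays. The deposited values are PLIER signal intensity (linear), made by the authors in ArrayAssist from CEL files. The step that normalizes between arrays is not given in the sources used here, and MAS5 detection calls were not used. All sample columns of the table were used. Of its 45101 probe sets, 64 were array controls, left out; platform annotation gave 34958 of the others a single gene, 932 several and 9160 none, and only single-gene probe sets were read by gene. Log2 signals, without an offset, were fitted by limma 3.58.1 (lmFit and eBayes, R 4.3.3) with a mean for each of the 4 groups. The fit covered 41031 probe sets, each brighter than 20 in 1 or more samples, and p-values were adjusted over all of these by Benjamini-Hochberg. Where a group mean or all its arrays lay at or under 20, signals were set to at least 20 and the change given as a lower bound. The fit was tested on simulated data. The number of arrays, 3 or 4 in a group, limits the precision.

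The members and gene lists were chosen with earlier results of these data known. Values of every sample are given for the genes with the largest and smallest UGE minus Sca-1Neg difference of each role, those without a call in that comparison, those called among adult populations, and *Mki67*, *Top2a* and *Cdk1*. Of other lists, the 3 called genes with the largest difference and those called lower are named. *Kif23*, *Espl1*, *Ube2c* and *Cit* were chosen for full values after those were seen. Alternatives tried were no filter, an offset of 16, quantile normalization, 75th-percentile centring, only the groups compared, the methods' t-test, no fold minimum, an intensity trend, array weights, averaged probe sets, replicate or study numbers as a block, either set of study numbers alone, and each array left out.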

Additional observations from a re-analysis of the deposited data

Results flagged for a closer look

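Of 88 sets of 4 arrays (Sca-1Lo and Sca-1Neg for each of the 44 genes), 5 held an array whose gap to its neighbour exceeded Dixon's critical value, where chance alone gives about 1 in 20. All 5 were Sca-1Neg arrays. *Ccna2* was at 337 on Sca-1Neg replicate 2, with the next highest at 257. *Mad2l1* was at 314 on the same array, with the next at 295. *Cenpe* was at 59.4 on Sca-1Neg replicate 4, with the next at 38.4, and *Pttg1* at 4532 on that array, with the next at 3379. *Plk4* was the only low one, at 82.5 on Sca-1Neg replicate 3, with the next lowest at 123. Groups of 3 arrays were not examined in this way.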

How the results depend on the processing

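Over the alternatives run, the count of genes higher in UGE was 39 to 42 of 44 against Sca-1Neg, 39 to 41 against Sca-1Hi and 40 to 42 against Sca-1Lo, with 0 lower in each. Of 3267 values of single called genes under 27 alternatives, 3254 kept their call, 0 changed sign and 13 lost the call: *Anln* and *Bub3* against Sca-1Neg, and *Espl1* and *Incenp* against Sca-1Hi (*Incenp* with averaged probe sets, at 0.64).

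The adult counts moved more. The adult F test called 1 gene, and 2 with quantile normalization (*Incenp* and *Kif23*), 13 with array weights, and 0 with each study number as a block, with either set of study numbers alone (numbers 1 and 2 hold 1 Sca-1Hi array, assumed to vary like the other groups) or with averaged probe sets. With the sets 1 to 2 and 3 to 5 as the block it stayed at 1 (*Incenp*, adjusted p = 0.0327). Genes higher in Sca-1Hi than in Sca-1Neg, 0 as reported, numbered 1 on study numbers 3 to 5 (*Ccnf*), 1 with no fold minimum (*Incenp*) and 5 with array weights, which also gave 1 lower, 6 lower in Sca-1Lo than in Sca-1Neg and 2 higher in Sca-1Hi than in Sca-1Lo. The estimate of array weights stopped before convergence. Leaving out 1 array gave 0 to 1 genes for the F test and 0 to 1 higher in Sca-1Hi than in Sca-1Neg, namely *Espl1* without Sca-1Hi replicate 1 and *Incenp* without Sca-1Neg replicate 4. The replicate number as a block gave 0 genes for the F test and 1 higher in Sca-1Hi than in Sca-1Neg (*Incenp*). Deviations of arrays with the same replicate number correlated at -0.45 to 0.56 over 19 pairs, 9 of them UGE with an adult array. Replicate and study numbers differ for some arrays, so this range cannot decide whether adult samples were paired. The replicate numbers were not taken to pair samples. Adult arrays of different populations correlated at a median of 0.32 with the same study number (-0.06 to 0.56, 8 pairs), 0.39 with another number of the same set and -0.33 across sets, a shared structure that the adult tests as reported do not model. The causes of these changes were not tested.

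The members' median for Sca-1Hi minus Sca-1Lo, 0.07, was -0.01 with quantile normalization. Centring on the 75th percentile moved the median of all probe sets for UGE minus Sca-1Neg to -0.13, where it was 0.08, and the members' median to 3.03. Signals above 20 were found for 35 to 43 of the 44 genes on an adult array, which limits the adult comparisons of the dimmest genes.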
